A study of Mus musculus with 90 samples.

Results

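This comparison concerns the frontal cortex of resident male mice 60 min after a social challenge: 5 intruder libraries against 5 control libraries, 10 of the 90 libraries in the series. The members were taken by region, time and condition from the sample labels, and rows of the count table that name no gene were left out. Every animal was a C57BL/6J male that had shared its cage with a female to hold a territory, and the female was taken out 3 h before the trial. Residents of the intruder group met an unfamiliar male of the BALB/cJ strain for 5 min, held in a wire mesh cage. Control residents met the same cage holding a paper cup. Afterwards the animals sat in a dark, quiet place until tissue was taken. Ages are not given in the sources used here, and the labels name no engineered allele. Each library is labelled with 1 animal, and the same 10 animals also gave amygdala and hypothalamus. The series text mentions pooling of RNA samples for library preparation and does not say whether animals were mixed, so the p-values below measure the spread between libraries.

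The frontal cortex lies at the front of the cerebral cortex and takes part in appraising social partners and in the control of aggression. In neurons, strong synaptic input switches on immediate-early genes such as Fos, Egr1, Nr4a1 and Arc within minutes, without new protein synthesis, and their products (transcription factors and synaptic proteins) drive a later group of genes. Calcium and cyclic AMP signalling reach many of these genes through the transcription factor CREB, which binds the cyclic AMP response element or its shorter core. Adrenal glucocorticoids released under stress act on a separate group, among them Fkbp5, Sgk1 and Tsc22d3.

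The start regions of Fos, Fosb and Nr4a3 are shown because these transcription factor genes belong to the immediate-early group described below, of which Nr4a3 had the smallest p. Each runs 5′ to 3′ on the gene's own strand from 250 bases before to 50 bases after the first start listed by RefSeq (build GRCm38.p6). Fos is at chr12:85473640-85473939 (plus strand), Fosb at chr7:19309996-19310295 (minus strand) and Nr4a3 at chr4:48045055-48045354 (plus strand). Capitals mark the core TGACG on either strand.
Fos: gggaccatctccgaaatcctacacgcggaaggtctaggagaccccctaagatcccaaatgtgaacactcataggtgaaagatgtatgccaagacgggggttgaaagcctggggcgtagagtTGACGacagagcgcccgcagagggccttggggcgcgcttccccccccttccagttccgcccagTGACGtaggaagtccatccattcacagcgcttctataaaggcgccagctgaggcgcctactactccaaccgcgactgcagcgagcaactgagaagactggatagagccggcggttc
Fosb: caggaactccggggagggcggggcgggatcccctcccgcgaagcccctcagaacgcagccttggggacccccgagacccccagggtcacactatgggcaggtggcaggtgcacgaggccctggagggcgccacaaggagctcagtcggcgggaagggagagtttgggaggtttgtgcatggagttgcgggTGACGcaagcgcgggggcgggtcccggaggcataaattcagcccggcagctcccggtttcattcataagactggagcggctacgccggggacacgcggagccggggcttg
Nr4a3: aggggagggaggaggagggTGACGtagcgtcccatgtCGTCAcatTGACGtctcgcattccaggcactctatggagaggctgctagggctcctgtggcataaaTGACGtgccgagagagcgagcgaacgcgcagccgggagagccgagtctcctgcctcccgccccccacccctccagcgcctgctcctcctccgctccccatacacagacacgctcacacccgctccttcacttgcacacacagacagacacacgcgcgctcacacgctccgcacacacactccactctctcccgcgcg
The first base of each match lay at -129 and -66 in Fos, at -60 in Fosb, and at -231, -213, -205 and -147 in Nr4a3, counted back from the start. The full element TGACGTCA, which holds the core on each strand, had 0 matches in these 3 windows, and so did the CArG box of serum response factor. Among the 16 of 20 immediate-early genes found in the RefSeq promoter table, 11 (68.8%) held the core at their first listed start, 2 (12.5%) the full element and 0 the CArG box. Over all 32841 windows of this length the shares were 20.8%, 1.79% and 1.63%. A match describes letters in a window and shows no binding.

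The 10 libraries held 41.2 M to 53.1 M gene reads (median 48.9 M) and 20523 to 21093 genes with a read. Depth, genes with a read, mitochondrial share, and the shares of reads without a feature, ambiguous or not uniquely aligned were compared between the groups: 6 two-sided exact permutation tests of 5 against 5 gave p from 0.135 to 0.952 (adjusted 0.702 to 0.952), where the smallest p this design allows is 0.00794. As a check of the tissue, the summed cortical layer markers stood at 2990 to 3344 CPM (depth-scaled read counts, here over the 3 regions), against 1587 to 2573 CPM in amygdala and 1031 to 1163 CPM in hypothalamus of the same animals. Markers of neighbouring tissue differed between libraries. The 12 striatum markers summed to 397.5, 506.5, 592.1, 864.8 and 1206 CPM in controls and to 375.5, 394.7, 804.5, 1644 and 1952 CPM in intruders, highest in intruder 3, intruder 1 and control 2. Cdhr1, Doc2g, Eomes, Tbx21 and Shisa3, markers of olfactory bulb and anterior olfactory neurons, summed to 4.72 to 63.3 CPM, lowest in controls 6 and 2 and intruder 1. These 5, which also define the libraries lowest in olfactory markers below, were picked from a list of 11. The whole list summed to 532.7 to 725.6 CPM, a 1.36-fold range against 13.4-fold for the 5. Choroid plexus markers summed to 205 to 669 CPM, high in control 6, intruder 1 and control 2, in which Ttr alone reached 279, 206 and 139 CPM against 0.182 to 15.03 CPM elsewhere. Intruder 1 stood apart in other ways: mitochondrial genes took 8.31% of its gene reads against 9.97% to 10.2% in the other intruders, and it held the end position on the first principal component (35.9, others -22.3 to 23.1). Intruders 1 to 5 and controls 1 to 3 carry the same leading library index, and controls 5 and 6 carry another.

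**Figure D1:**
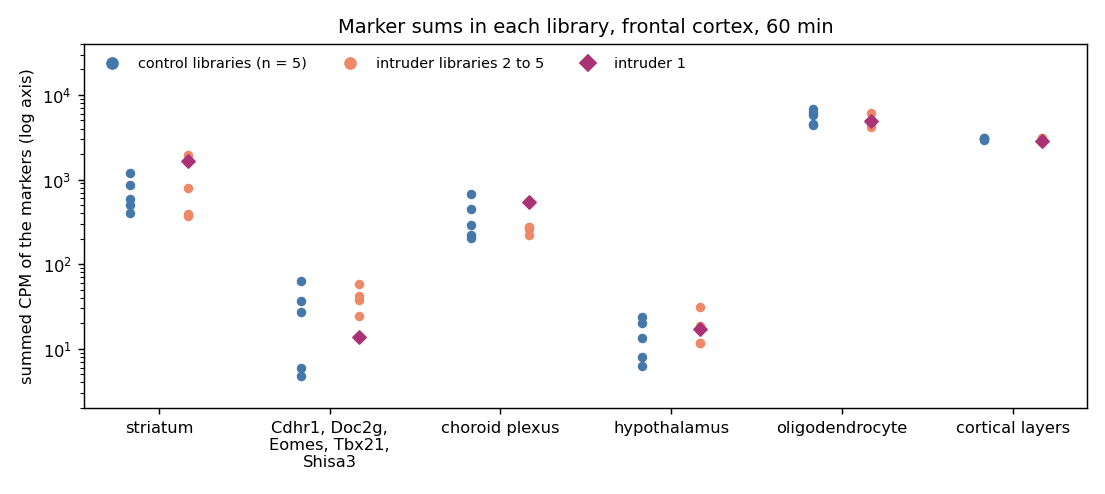
Summed CPM (log axis) of marker lists in each of the 10 libraries; blue circles are controls, orange circles intruders 2 to 5, and the purple diamond intruder 1. Cortical layer markers differ by at most 1.12-fold between libraries and striatum markers by up to 5.2-fold.

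No gene was called between intruder and control residents in frontal cortex 60 min after the trial. Of 17091 genes tested, edgeR's quasi-likelihood test with Benjamini-Hochberg adjustment called 0 (0%) at an adjusted p under 0.05, and the smallest adjusted p was 0.99994. At an unadjusted p under 0.05 there were 434 genes (2.54%), 220 higher (1.29%) and 214 lower (1.25%) in intruder libraries. DESeq2 called 0 with 403 at that unadjusted threshold, and limma voom called 0 with 451. The 2 groups did not overlap in 64 genes (0.374%), 32 in each direction (0.187%). The median log2 fold change over all genes tested was -0.003, with 8227 genes higher (48.1%) and 8864 lower (51.9%).

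The intervals bound what could have been missed. For genes of at least 10 CPM the 95% interval of the fold change lay within 1.5-fold in 98.8% of 9871 genes and within 2-fold in 99.7%. Over all genes tested it lay within 1.5-fold in 81.8% and within 2-fold in 94.2%. The interval reached a median of 0.58 to either side of the log2 fold change for genes under 1 CPM, 0.25 at 1 to 10 CPM, 0.13 at 10 to 100 CPM and 0.11 above. Leaving out intruder 1 still called 0 genes but took the count at the unadjusted threshold to 1227 of 17185 (7.14%; 825 lower, 4.8%, and 402 higher, 2.34%); without control 1 it was 676 and without control 5 it was 713.

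By the rule used for naming genes, the 10 higher and 10 lower genes with the smallest p at a mean of at least 1 CPM are described next, and none of them passed the test (adjusted p = 0.99994 each, edgeR). In 10 of these 20 genes, chosen for their p, the groups did not overlap, 5 in each direction; 8 of the 10, all but Tlcd1 and Chrna4, also did not overlap when libraries were scaled over the 3 regions, an alternative added after seeing the data. Lxn (ENSMUSG00000047557), which encodes latexin, an inhibitor of carboxypeptidases, stood at 26.6, 25.0, 22.9, 26.5 and 22.1 CPM in controls 1, 2, 3, 5 and 6 and at 29.2, 30.3, 33.4, 29.2 and 29.6 CPM in intruders 1 to 5. All 5 intruder libraries lay above all 5 controls, in a narrow band apart from intruder 3. The log2 fold change was 0.30 (SE 0.08, 95% interval 0.15 to 0.45). Renbp, the renin binding protein, was at 1.55 to 2.60 CPM in controls and 2.77 to 3.06 CPM in intruders, again without overlap (log2 0.45, SE 0.11). Tlcd1, which encodes a membrane protein with a TLC domain, Myom3, a sarcomeric M-band protein, and Gpr153, an orphan receptor, were the other 3 of the higher genes without overlap, with log2 fold changes of 0.24, 0.36 and 0.25.

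Tmem267, a transmembrane protein gene, had a larger mean difference with a different pattern. It was at 8.002, 9.83, 9.17, 8.56 and 7.10 CPM in controls and at 17.2, 13.0, 17.2, 8.45 and 10.2 CPM in intruders 1 to 5, so that intruders 1 to 3 were high and intruder 4 lay among the controls (log2 0.63, SE 0.16). The same animals split likewise in amygdala, where intruders 1 to 3 had 15.7, 15.7 and 17.8 CPM and intruders 4 and 5 had 11.1 and 12.2 CPM, against 8.71 to 11.3 CPM in controls. In hypothalamus all 5 intruders, at 13.7, 13.1, 14.1, 10.4 and 12.5 CPM, lay above the controls at 8.67 to 10.1 CPM, intruder 4 included. Rpe65, the retinoid isomerase of the visual cycle, Rps27rt, a retrotransposed copy of a ribosomal protein gene, Rtp1, a chaperone of odorant receptors, and Nupr1, a stress-induced chromatin protein, overlapped between groups (log2 0.60, 0.51, 0.90 and 0.37). Reads of Rps27rt can be shared with its parent gene, and Rps27rt and Rtp1 lay near 1 CPM, so their values are less certain.

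Among the lower genes, Chrna4, a subunit of neuronal nicotinic acetylcholine receptors (ENSMUSG00000027577), was at 40.4, 33.4, 36.9, 41.7 and 34.1 CPM in controls and at 32.9, 28.1, 28.0, 31.3 and 33.3 CPM in intruders. The gap between the groups was under 1 CPM, between intruder 5 and control 2, and was absent when libraries were scaled over the 3 regions (35.91 and 35.86 CPM). Its log2 fold change was -0.28 (SE 0.08, 95% interval -0.44 to -0.12), against -0.02 at 30 min and 0.06 at 120 min. Frg2f1 was at 7.66 to 8.39 CPM in controls and 6.503 to 7.51 CPM in intruders (log2 -0.23, SE 0.05), without overlap. Cxxc4, an antagonist of Wnt signalling, Kcna6, a voltage-gated potassium channel subunit, and Fancd2, a DNA crosslink repair protein, also did not overlap (log2 -0.22, -0.20 and -0.38).

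Top2a, the topoisomerase of dividing cells, stood at 1.499 to 3.01 CPM in controls and 0.839 to 1.81 CPM in intruders (log2 -0.81, SE 0.27), the largest difference among the 10 lower genes, with overlap. Arhgap11a was at 2.68 to 3.62 CPM in controls and 2.21 to 2.46 CPM in intruders 2 to 5, while intruder 1 stood at 3.14 CPM (log2 -0.34). Hopx, a homeodomain protein without DNA binding, Matn2, an extracellular matrix protein, and Nfib, a transcription factor of glial development, differed by -0.32, -0.28 and -0.16 with overlapping groups.

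**Figure D2:**
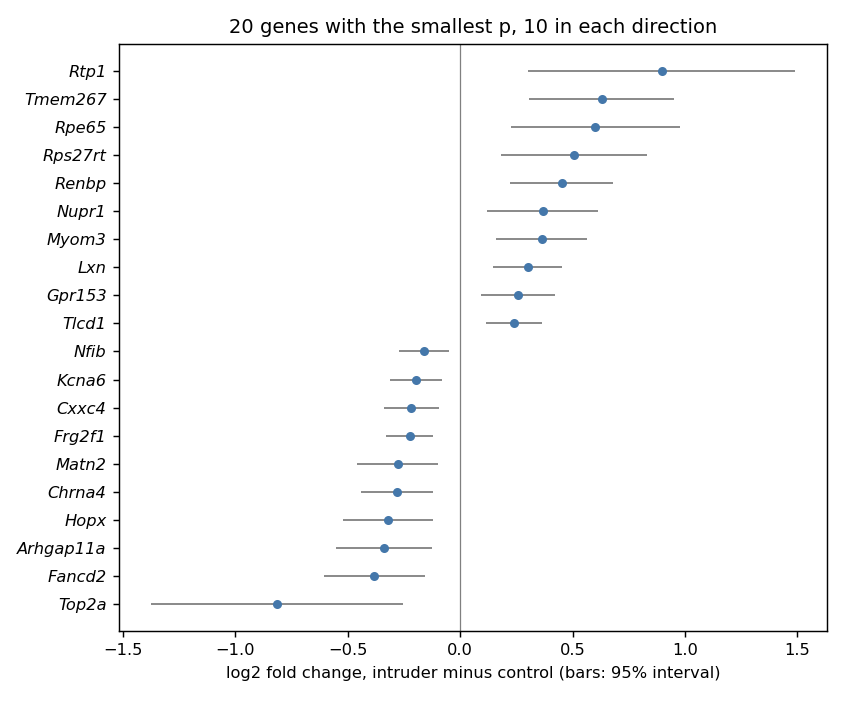
Log2 fold change, intruder minus control, of the 10 higher and 10 lower genes with the smallest p (points) with 95% intervals (bars). Rtp1 (0.90) and Top2a (-0.81) have the largest differences and the widest intervals, and no gene passed the adjusted threshold.

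Immediate-early genes were lower in the mean of the intruder group for 17 of 20 members (51.9% of all genes), with a median log2 fold change of -0.20 against -0.003 over all genes tested. Of the 20, 0 passed the adjusted threshold and 1, Nr4a3, had an unadjusted p under 0.05 (background 2.54%). Fos, the AP-1 subunit used most widely as a marker of neuronal activity (ENSMUSG00000021250), was at 53.4, 53.1, 58.8, 46.7 and 45.5 CPM in controls and at 59.8, 36.9, 40.8, 38.4 and 33.0 CPM in intruders 1 to 5. Intruders 2 to 5 lay below every control, and intruder 1 was the highest of the 10 libraries. The group means were 51.5 ± 5.5 and 41.8 ± 10.4 CPM (SD, n = 5 each), with a log2 fold change of -0.30 (SE 0.23, 95% interval -0.77 to 0.17). Nr4a1, an orphan nuclear receptor, repeated the pattern: controls held 144 to 173 CPM, intruders 2 to 5 held 103 to 134 CPM and intruder 1 held 176 CPM (log2 -0.26, SE 0.20).

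Intruder 1 was set apart from the other 4 intruders in some other members. In Fos, Nr4a1, Egr2 and Egr4, 4 of 20 members, intruders 2 to 5 all lay below the controls, a pattern held by 122 of the 17091 genes (0.714%). The pattern was taken from these same values, so its share among the members is no test. Intruder 5 was the lowest library for 11 of the 20 genes, against 7.36% of all genes tested, and intruder 1 the highest for 6, against 18.6%. Egr1, a zinc finger factor, was at 401 to 435 CPM in intruders 2 to 5, 534 CPM in intruder 1 and 418 to 583 CPM in controls. Egr3, from the same family, was at 45.9 to 53.0 CPM in intruders 2 to 5 and 81.3 CPM in intruder 1, while controls spread from 44.2 to 80.2 CPM. Without intruder 1 the list median was -0.33 with 16 of 20 lower, 2 at an unadjusted p under 0.05 (background for lower genes 4.8%) and 0 called.

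Nr4a3, the relative of Nr4a1 whose start region is printed above, differed most. It was at 60.8, 43.7, 61.9, 58.7 and 51.8 CPM in controls and at 49.98, 34.3, 49.4, 43.1 and 34.5 CPM in intruders 1 to 5 (log2 -0.39, SE 0.19, 95% interval -0.78 to -0.01). Only control 2 fell within the range of the intruders. Fosb, an AP-1 subunit, overlapped more (log2 -0.31, SE 0.21), as did Ier2 (log2 -0.30, SE 0.17). Arc, the synaptic effector that regulates receptor trafficking, was at 310 to 517 CPM in controls and 258 to 511 CPM in intruders (log2 -0.23, SE 0.25), with intruder 1 at the top of its group. Npas4, the neuron-specific factor induced by calcium entry, differed by -0.22 (SE 0.18), and Dusp1, a phosphatase that ends MAP kinase signalling, by -0.14 (SE 0.19). The members higher in the intruder mean were Nr4a2 (log2 0.23), Jun (0.09) and Klf4 (0.07). Jun and Klf4 turned to -0.05 and -0.02 without intruder 1, intruder 3 and control 2, the libraries with most striatum marker reads, a choice made after seeing the data; without these libraries the list median was -0.33 with 18 of 20 lower and 0 called.

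**Figure D3:**
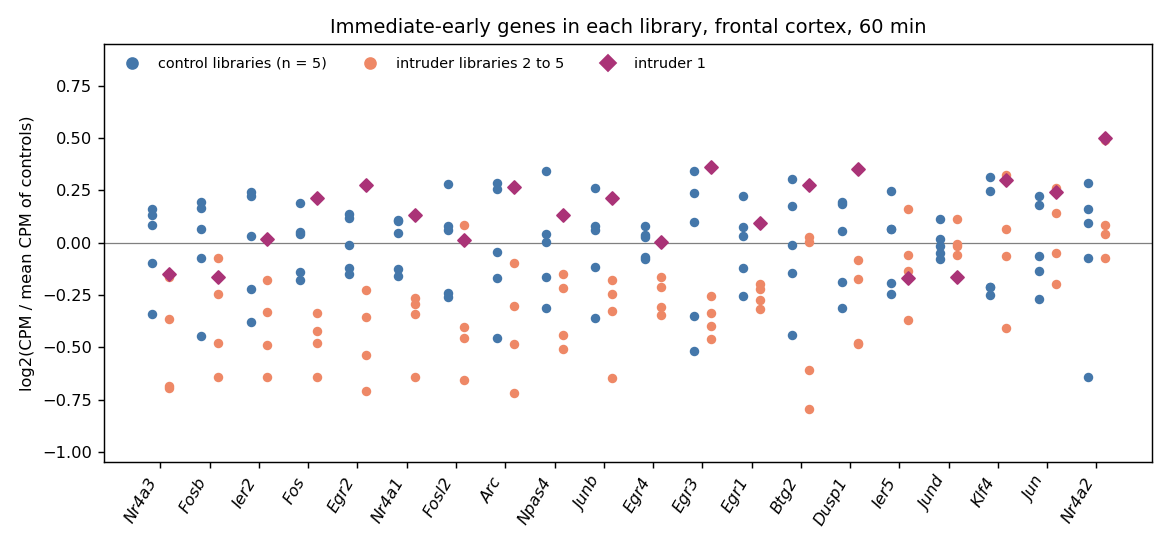
Log2 ratio of each library's CPM to the control mean for 20 immediate-early genes, ordered by fold change from Nr4a3 (-0.39) to Nr4a2 (0.23); blue circles are controls, orange circles intruders 2 to 5, and the purple diamond intruder 1. Intruder 1 lies above the other intruders in most of the genes on the left.

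Intruder 1, with Fos at 59.8 CPM, was also high in striatum (1644 CPM) and choroid plexus markers (537.4 CPM), and intruder 3, with Fos at 40.8 CPM, in striatum markers (1952 CPM). Within the 8 libraries that share an index the immediate-early median was -0.29, and 0 genes of 17270 were called (612, or 3.54%, at an unadjusted p under 0.05). The part of tissue makeup or of the index in these values was not tested.

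Delayed activity-regulated genes, which follow the immediate-early wave, were lower in the intruder mean for 27 of 30 members (51.9% of all genes), with a median log2 fold change of -0.06. Of the 30, 0 passed the adjusted threshold and 1 had an unadjusted p under 0.05 (2.54% of all genes). Without intruder 1, 24 of 30 were lower with 3 under that threshold (4.8% of all genes), and among the libraries that share an index 21 of 30 were lower. The member under the threshold in all 10 libraries was Plk3, a polo-like kinase, at 17.9 to 22.4 CPM in controls and 15.7 to 19.4 CPM in intruders (log2 -0.23, SE 0.11). Bdnf, the neurotrophin that shapes synapses, was at 33.6 to 46.5 CPM in controls and 34.6 to 39.9 CPM in intruders (log2 -0.07, SE 0.11). Homer1, a postsynaptic scaffold, differed by -0.08 (SE 0.14), and Nptx2, a secreted pentraxin that gathers receptors, by -0.02 (SE 0.14). The 95% interval of Bdnf ran from -0.30 to 0.16.

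Glucocorticoid-responsive genes leaned the other way, with 17 of 20 higher in the intruder mean (48.1% of all genes) and a median of 0.08. Of the 20, 0 passed the adjusted threshold and 1 was at an unadjusted p under 0.05 (2.54% of all genes). Among the libraries that share an index 12 of 20 were higher, with a median of 0.04. Nfkbia, which encodes the inhibitor that holds NF-kB in the cytoplasm, was at 20.8, 21.5, 22.3, 25.9 and 25.5 CPM in controls and 27.7, 25.6, 28.5, 29.1 and 29.8 CPM in intruders 1 to 5. Only intruder 2 fell within the control range, and only just (log2 0.28, SE 0.10). Intruder 1 was the highest of the 10 libraries for 10 of the 20 genes, against 18.6% of all genes tested, and intruder 2 for 5, against 5.03%. Plin4, a lipid droplet coat protein, reached 20.7 CPM in intruder 1 and 13.4 CPM in intruder 2, while intruders 3 to 5 (3.81 to 7.62 CPM) lay among or below the controls (5.09 to 10.1 CPM). Fkbp5, the co-chaperone that limits glucocorticoid receptor signalling, was at 65.3, 52.5, 44.5, 33.3 and 31.7 CPM in intruders 1 to 5 and 30.5 to 49.2 CPM in controls. In these 2 genes intruders 1 and 2 were thus the highest libraries of all.

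The same 2 animals were also the highest of the 10 in hypothalamus. In hypothalamus Plin4 stood at 38.8 and 35.8 CPM in intruders 1 and 2, against 10.7 to 16.7 CPM in intruders 3 to 5 and 11.2 to 21.9 CPM in controls. Fkbp5 there was at 62.9 and 53.6 CPM in intruders 1 and 2 and at 28.5 to 43.1 CPM in controls. In amygdala intruders 1 and 2 were also the highest for Plin4 (22.85 and 13.11 CPM, against 5.108 to 10.6 CPM in the other animals). For Fkbp5 there intruder 1 was again the highest (78.5 CPM), but intruder 2 (68.8 CPM) lay just below control 2 (70.0 CPM). Leaving out intruder 1 brought the frontal cortex log2 fold change of Plin4 from 0.46 to 0.04 and that of Fkbp5 from 0.23 to 0.06, and left 14 of 20 members higher with a median of 0.04. Nfkbia kept its difference (0.28) without that library. Nr3c1, the glucocorticoid receptor gene, differed by -0.08 (SE 0.09). Over the glucocorticoid list, 6 of 20 members were lower in amygdala (48.8% of all genes, median 0.09) and 0 of 20 in hypothalamus (51.1%, 0.135). In frontal cortex at 30 and 120 min 15 and 12 of 20 were lower (49.8% and 51.1% of all genes), with medians of -0.05 and -0.03.

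Core clock genes had 12 of 18 higher and a median of 0.04. Dbp, an output gene of the clock, was at 77.9 to 110 CPM in controls and 96.6 to 111 CPM in intruders (log2 0.24, SE 0.11), the single member under the unadjusted threshold. Without intruder 1 the list had 9 of 18 higher, a median of 0.003 and 0 under that threshold, with Dbp at 0.23. Heat shock and cold-inducible genes had a median of 0.01 with 0 of 18 under that threshold. Hspa1a and Hspa1b, inducible chaperones that share nearly all their sequence, so that reads can be lost or misplaced between them, differed by 0.01 (SE 0.28) and 0.14 (SE 0.27), against 0.94 and 1.01 at 120 min.

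Neuropeptide genes had 22 of 29 listed members testable, 12 higher and 10 lower. Pmch, the precursor of melanin-concentrating hormone made by lateral hypothalamic neurons, had the largest fitted change (log2 3.04, SE 0.87), and it rested on 1 library. Intruder 2 stood at 4.75 CPM, the other intruders at 0.0198 to 0.224 CPM and the controls at 0.0608 to 0.209 CPM. Without intruder 2 the log2 fold change was -0.13. In the hypothalamus, its site of synthesis, the same 10 animals held 210 to 476 CPM, and intruder 2 (372 CPM) was unremarkable there. The hypothalamus marker list, of which Pmch is 1 member, did not single out that library: intruder 2 summed to 18.4 CPM, within the 6.19 to 31.4 CPM of the 10 libraries. Penk, a striatal opioid peptide precursor as well as a cortical one and itself a member of the striatum list, ranged from 57.4 to 184 CPM in controls and 66.3 to 381 CPM in intruders (log2 0.58, SE 0.52). Crh, the stress peptide of cortical interneurons, was at 5.67 to 7.93 CPM in controls and 6.10 to 8.95 CPM in intruders (log2 0.07, SE 0.15).

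Receptors for hormones and transmitters gave no called member. Peptide and steroid hormone receptors had 13 of 29 higher, a median of -0.01 and 0 at an unadjusted p under 0.05. Without intruder 1, 10 of 29 were higher with a median of -0.05, 5 were lower at that threshold (4.8% of all genes) and 0 were called. Oxtr, the oxytocin receptor, was at 5.20 to 14.7 CPM in controls and 7.44 to 11.2 CPM in intruders (log2 -0.10, SE 0.21, 95% interval -0.52 to 0.32), with control 5 the highest library. Monoamine and acetylcholine genes had 19 of 35 higher and a median of 0.01, with Chrna4 the single member under the unadjusted threshold. Glutamate and GABA receptor subunits had 22 of 36 lower and a median of -0.01. Of these, Gria3, an AMPA receptor subunit, was at 250.9 to 266 CPM in controls and at 263, 239, 235, 210 and 227 CPM in intruders 1 to 5 (log2 -0.14, SE 0.05). Grik3, a kainate receptor subunit, was at 80.6 to 92.3 CPM in controls and at 94.97, 64.5, 82.1, 71.8 and 74.5 CPM in intruders (log2 -0.17, SE 0.08). In both genes intruder 1 was again the highest of its group and the other 4 were mostly below the controls. Without it 28 of the 36 subunits were lower (51.4% of all genes), 4 of them at an unadjusted p under 0.05 (4.8% of all genes) and 0 called.

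Genes of energy metabolism differed by small amounts. Nuclear subunits of oxidative phosphorylation were higher for 62 of 79 (median 0.02), mitochondrially encoded protein genes for 12 of 12 (median 0.07) and cytosolic ribosomal protein genes for 77 of 84 (median 0.05), and 0 members of these lists had an unadjusted p under 0.05. Intruder 1 was the lowest of the 10 libraries for 58 of the 79 and for 70 of the 84, against 17.3% of all genes tested. Intruder 4 was the highest for 30 of the 79 and 53 of the 84, against 13.2% of all genes, and intruder 5 for 37 of the 79 and 18 of the 84, against 10.1%. Without intruder 1 the medians were 0.06, 0.12 and 0.10, with 4, 5 and 25 members higher at the unadjusted threshold (background for higher genes 2.34%) and 0 called. Many of these genes have pseudogene copies, so their counts depend on how reads with several alignments were handled. Enzymes of glycolysis and the citrate cycle had 21 of 46 higher and a median of -0.01. Slc16a1, a lactate and pyruvate transporter, was at 27.5 to 33.3 CPM in controls and 24.6 to 28.2 CPM in intruders (log2 -0.13, SE 0.06). Regulators of mitochondrial biogenesis had 14 of 21 higher and a median of 0.01. Without intruder 1, 8 of 21 were higher with a median of -0.03, and among the libraries that share an index 10 of 21 with -0.02. Over all 10 libraries Ppargc1a, the coactivator at the head of that programme, differed by -0.03 (SE 0.08) and Tfam, a factor of mitochondrial DNA, by -0.05 (SE 0.05).

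**Figure D4:**
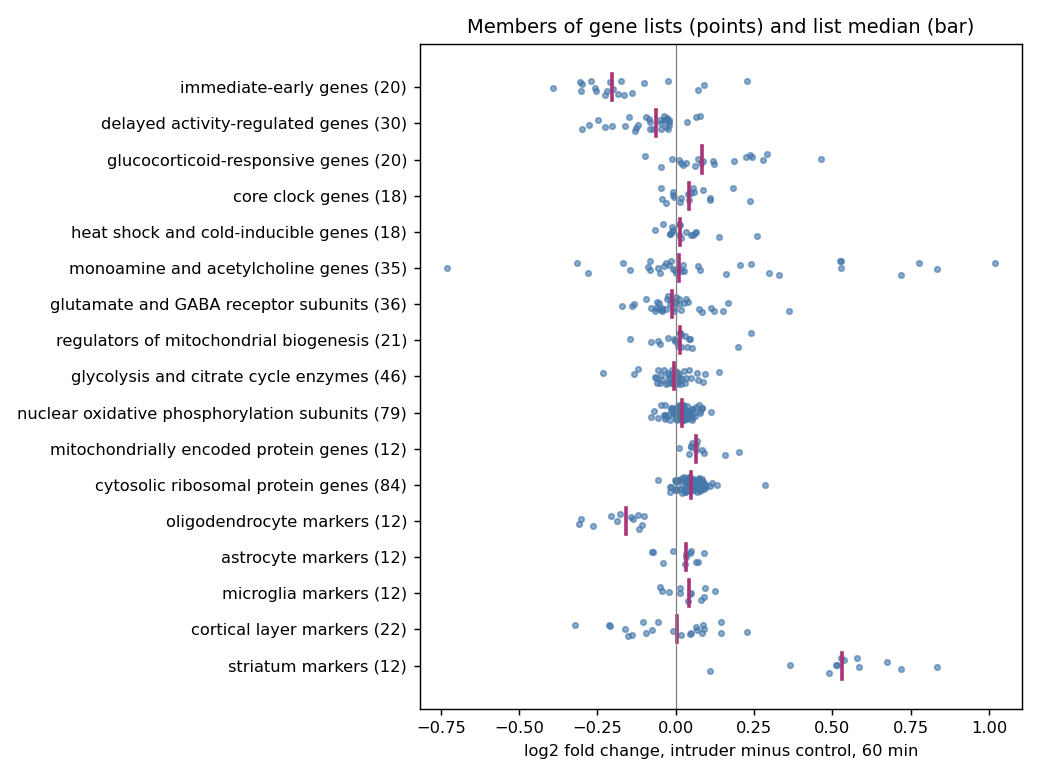
Log2 fold change, intruder minus control, of the tested members of each list (points, number of members in parentheses) with the list median (purple bar). Immediate-early genes (median -0.20) and oligodendrocyte markers (-0.16) lie to the left, striatum markers (0.53) to the right.

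Oligodendrocyte markers were lower in the intruder mean for 12 of 12 genes (51.9% of all genes; median -0.16), with 0 called and 1 at an unadjusted p under 0.05 (2.54% of all genes). The median was -0.08 without control 3 and -0.24 without intruder 4, the ends of its range when 1 library was left out. Opalin, a myelin paranode protein, was at 14.5, 16.0, 19.2, 13.0 and 15.7 CPM in controls and 12.2, 10.7, 11.8, 16.0 and 12.3 CPM in intruders (log2 -0.31, SE 0.15). Mbp, the myelin basic protein, overlapped widely, at 1950 to 2913 CPM against 1912 to 2883 CPM. Summed over the list, controls ranged from 4361 to 6835 CPM and intruders from 4158 to 6144 CPM; control 3 was the highest library for 9 of the 12 genes and intruder 2 the lowest for 11. In the same animals 12 of 12 were lower in hypothalamus (51.1% of all genes, median -0.24) and 9 of 12 in amygdala (48.8%, -0.04). In frontal cortex at 30 and 120 min 7 and 0 of 12 were lower (49.8% and 51.1% of all genes), with medians of -0.02 and 0.11. In tissue RNA, fewer cells of a type and less RNA per cell cannot be told apart. Astrocyte (8 of 12 higher, median 0.03), microglia (9 of 12, 0.04) and endothelial markers (9 of 12, 0.02) had 0 members under the unadjusted threshold. Mural cell markers had 10 of 12 higher with a median of 0.11, and meningeal and fibroblast markers 10 of 12 with 0.07. Leaving out 1 library each, these medians ranged from 0.0493 to 0.14 and from -0.011 to 0.179.

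Among neuronal identity genes, cortical layer markers had 11 of 22 higher and a median of 0.00, with Cux1, a factor of upper layers, at 60.2 to 75.7 CPM in controls and 70.3 to 76.0 CPM in intruders (log2 0.14, SE 0.07). Fezf2, a factor of deep-layer projection neurons, differed by -0.32 (SE 0.16), with 17.9 CPM in intruder 3 against 28.5 to 33.1 CPM in the other intruders and 29.6 to 43.1 CPM in controls. Interneuron markers had 10 of 18 higher. Striatum markers were higher for 12 of 12 genes with the largest list median, 0.53, and 0 at an unadjusted p under 0.05: Drd2, the dopamine receptor of indirect pathway neurons, ranged from 4.57 to 36.8 CPM in controls and 3.09 to 57.1 CPM in intruders. Leaving out intruder 1, intruder 3 and control 2 turned that median to -0.24. Thalamus markers had 8 of 10 higher (median 0.06), hypothalamus markers 9 of 10 (0.38), olfactory markers 10 of 11 (0.24), blood markers 5 of 8 (0.07) and choroid plexus markers 1 of 8 (-0.17). The same 3 libraries turned the hypothalamus median to -0.07 when left out, and took the choroid plexus median to -0.81; leaving out the 3 libraries lowest in olfactory markers took the choroid plexus median to 0.35 and the olfactory median to -0.11.

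The intruder effect at 60 min was next set against that at 30 and 120 min in frontal cortex. The difference from 30 min was called in 0 of 17091 genes (594, or 3.48%, at an unadjusted p under 0.05; smallest adjusted p 0.993, edgeR), and that from 120 min in 0 (797, or 4.66%; smallest adjusted p 0.281). All 30 min libraries carry the token ISO in their column names and all 60 and 120 min libraries the token CERV, which the labels do not explain, so that the time and this token cannot be told apart in the first test. At 120 min all 6 control libraries carry one leading index and all 6 intruder libraries another, so that condition and index cannot be told apart there or in any difference from 120 min given below. Without intruder 1 the 2 counts at the unadjusted threshold were 1824 and 1199, again with 0 called.

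Immediate-early genes had their only negative median of the 3 frontal cortex times at 60 min: 0.11 at 30 min (4 of 20 lower), -0.20 at 60 min (17 of 20) and 0.12 at 120 min (1 of 20), where 49.8% and 51.1% of all genes were lower at 30 and 120 min. The differences from 30 and 120 min were each called in 0 members, and 1 member in each was at an unadjusted p under 0.05 and lower at 60 min, Btg2 against 30 min (background for lower genes 1.52%) and Nr4a3 against 120 min (2.47%). Fos in intruder libraries spread from 30.8 to 120 CPM at 30 min, from 33.0 to 59.8 CPM at 60 min and from 24.7 to 46.5 CPM at 120 min. The corresponding control ranges were 46.4 to 67.0, 45.5 to 58.8 and 20.7 to 35.0 CPM. Controls at 60 min lay above all controls at 120 min, and the intruder ranges of the 3 times overlapped. Nr4a3 effects were 0.03, -0.39 and 0.27 at the 3 times, and the difference between 60 and 120 min was -0.66 (SE 0.26, adjusted p = 0.989, edgeR). Heat shock and cold-inducible genes had medians of -0.07, 0.01 and 0.26 at 30, 60 and 120 min, and the effect was lower at 60 than at 120 min at an unadjusted p under 0.05 in 11 of 18 members (2.47% of all genes), with 0 called.

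**Figure D5:**
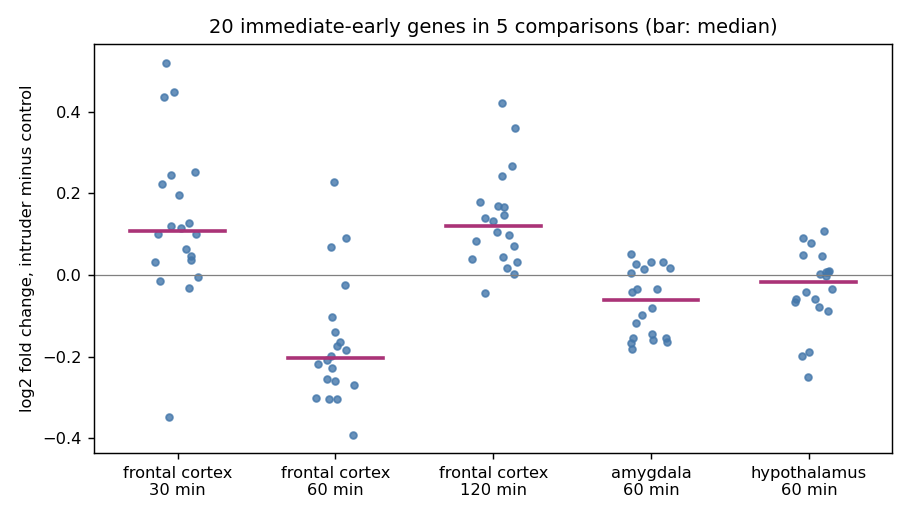
Log2 fold change, intruder minus control, of 20 immediate-early genes (points) in 5 comparisons with the median (purple bar). Medians are 0.11, -0.20 and 0.12 in frontal cortex at 30, 60 and 120 min, -0.06 in amygdala and -0.02 in hypothalamus at 60 min.

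Among single genes, Myom3 had the smallest p against 120 min: its effect was 0.36 at 60 min and -0.32 at 120 min, a difference of 0.68 (SE 0.13, adjusted p = 0.281, edgeR). N4bp3, which binds the ubiquitin ligase Nedd4, had -0.25 and 0.28, and 6330418K02Rik had 0.19 and -0.29. Against 30 min, Il17rd, an inhibitor of FGF signalling, had effects of -0.18 at 60 min and 0.48 at 30 min (difference -0.66, SE 0.15), and Frg2f1 had -0.23 and 0.06. Mid1, an X-linked ubiquitin ligase, had 0.69 at 60 min and -0.77 at 30 min, a difference of 1.46 (SE 0.37).

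Mid1 was also measured in the other regions of the same animals. Frontal cortex held 14.3, 12.9, 22.8, 27.9 and 23.5 CPM in controls and 25.4, 37.4, 35.7, 37.9 and 27.4 CPM in intruders, with overlap at control 5. In amygdala the same animals held 11.1 to 26.1 and 29.6 to 44.6 CPM, and in hypothalamus 16.4 to 32.0 and 33.1 to 44.7 CPM, without overlap in either. These values share their animals, so they are not separate evidence. Controls 1 and 2 were the lowest animals in all 3 regions.

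At 60 min the intruder effect in frontal cortex was also compared with that in amygdala and hypothalamus of the same 10 animals, in a fit with the animal as a block. Against amygdala 0 of 17628 genes were called (883, or 5.01%, at an unadjusted p under 0.05; smallest adjusted p 0.952, edgeR), and against hypothalamus 0 (289, or 1.64%; smallest 0.711). Without intruder 1 these counts were 1550 and 448, without intruder 2 the first was 587, and none of these fits called a gene. Sdk2, an adhesion protein of synaptic layers, had the smallest p against amygdala among genes of at least 1 CPM, with effects of -0.32 in frontal cortex and 0.22 in amygdala (difference -0.54, SE 0.11). Fancd2 (-0.38 and 0.25) and Lxn (0.30 and -0.05) followed, with differences of -0.63 (SE 0.14) and 0.36 (SE 0.08). Lxn in amygdala was at 26.2 to 32.0 CPM in controls and 26.3 to 30.2 CPM in intruders, so the separation seen in frontal cortex was not present there.

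Against hypothalamus the smallest p at that expression belonged to Tox, a nuclear HMG-box protein (effects -0.23 and 0.15, difference -0.38, SE 0.09), Npsr1, the neuropeptide S receptor (-0.49 and 0.23), and Trib1, a pseudokinase of the delayed activity list (-0.28 and 0.07). Immediate-early genes had medians of -0.06 in amygdala (13 of 20 lower, against 48.8% of all genes) and -0.02 in hypothalamus (11 of 20, against 51.1%), and the difference of the effect was called in 0 members in either test, with 1 (Nr4a3) and 2 (Nr4a3 and Dusp1) members lower at an unadjusted p under 0.05 (background 1.88% and 0.732%). Fos in amygdala was at 18.4 to 39.5 CPM in controls and 20.7 to 32.3 CPM in intruders, and in hypothalamus at 18.9 to 26.6 and 16.9 to 24.7 CPM, with groups that overlapped in both. Oxidative phosphorylation and ribosomal protein genes gave many of the small p against amygdala: 44 of 79 and 46 of 84 had a higher effect in frontal cortex at the unadjusted threshold, against 3.13% of all genes, with 0 called. In amygdala all 5 intruder libraries carry one leading index and 4 of the 5 controls another, so that condition and index nearly coincide there, and the part of the index was not tested. Their medians were 0.02 and 0.05 in frontal cortex and -0.16 and -0.14 in amygdala.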

How the data were processed

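RNA of dissected frontal cortex, amygdala and hypothalamus was sequenced in 90 libraries, with total RNA made into stranded mRNA libraries and read from 1 end, per the labels' protocols. The authors deposited counts, whole numbers of reads per gene for 37991 mouse gene identifiers. The submitters' processing notes name CASAVA 1.8.2, TopHat2 2.0.8, HTSeq 0.6.1, edgeR 3.2.4, R 3.0.0 and the build NCBIM37, without order or settings, and the strand setting of the counting is not given in the sources used here. The last 5 rows name no gene and were left out; in the 10 libraries reads without a feature made up 8.63% to 10.3% of the total, ambiguous reads 0.689% to 0.761% and reads not uniquely aligned 10.3% to 11.5%. Symbols came from a gene name table matched by identifier (32919 matched).

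All 32 frontal cortex libraries were fitted with edgeR 4.0.16 in R 4.3.3 with 6 group means, so that the groups share 1 estimate of the spread (biological coefficient of variation 10.3%). Genes passed filterByExpr, libraries were scaled by TMM, and contrasts were tested two-sided with the quasi-likelihood F test. Values are CPM from TMM-scaled sizes. CPM of other regions were scaled over the 30 libraries of 60 min, which also gave the tests of a difference between regions. Intruder effects in amygdala and hypothalamus come from fits of each region apart, with its own 6 group means. Genes were called at an adjusted p under 0.05 (Benjamini-Hochberg over all genes tested). Counting error adds to the spread between libraries and weighs most in genes with few reads.

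Replicates are libraries, each labelled with 1 animal. Among the 10 libraries, those of a group differed by more than sampling noise (chi-square per gene 5.95 to 56.1), so none was a copy of the reads of another. This check cannot show whether libraries shared an animal or an RNA pool, and other libraries were not checked. The members and gene lists were chosen with earlier results of these data known, and lists are described by counts and medians. Named genes are the 10 higher and 10 lower with the smallest p at a mean of at least 1 CPM, members of the lists, and the 3 genes with the smallest p in each test of a difference. Promoter sequences are from RefSeq (GRCm38.p6), matched by symbol. Alternatives were DESeq2 1.42.0, voom of limma 3.58.1, other scalings, no filter on low counts, the 2 groups alone, blocks by replicate number or index, and leaving out libraries.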

Additional observations from a re-analysis of the deposited data

Results flagged for a closer look

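In groups of 5, a value was picked out when its gap to the nearest library, divided by the range of the group, exceeded 0.71. Of 150 groups of values looked at, 10 held such a value; chance gives about 1 in 20. Of the 10, 8 were in intruder 1. Intruder 1 was the lowest of its group in reads not uniquely aligned (10.3% against 11.3% to 11.5%) and in the mitochondrial share (8.31% against 9.97% to 10.2%). It was the highest in summed astrocyte markers (6440 CPM against 5980 to 6050) and choroid plexus markers (537 CPM against 219 to 276). Among genes it was the highest in Egr1 (534 CPM against 401 to 435), Egr3 (81.3 CPM against 45.9 to 53.0), Arhgap11a (3.14 CPM against 2.21 to 2.46) and Sdk2 (29.5 CPM against 23.9 to 25.2). The other values were Pmch in intruder 2 (4.75 CPM against 0.0198 to 0.224) and Lxn in intruder 3 (33.4 CPM against 29.2 to 30.3).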

How the results depend on the processing

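The number of called genes was 0 in every alternative run, for the comparison at 60 min and for each of the 4 tests of a difference. The 434 genes at an unadjusted p under 0.05 became 792 with no filter on low counts, 270 with the replicate number as a block in the 2 groups alone, 1368 without the 3 libraries highest in striatum markers and 738 without the 3 lowest in olfactory markers (both added after seeing the data), and 305 to 1227 leaving out 1 library each. The pairing by replicate number is a number only: deviations of same-numbered libraries correlated at -0.18 to 0.1 over 4 pairs. For the difference from 30 min, 594 became 403 to 1824 leaving out 1 library; from 120 min, 797 became 1204 with no filter and 561 to 1199; against amygdala, 883 became 587 to 1550; against hypothalamus, 289 became 244 to 448. Without the block for the animal the last 2 counts were 679 and 243. Of 59 gene results, 54 kept their direction. Jun turned to -0.0451 without the 3 striatum libraries and -0.0502 without the 3 olfactory libraries. Jund (-0.02) turned to 0.0308 with the index as a block and 0.0231 in the libraries that share an index, and ranged from -0.0626 to 0.00885 leaving out 1 library. Ier5 turned to 0.012 and 0.0329 without the 3 striatum and the 3 olfactory libraries. Klf4 turned to -0.0601 with the index as a block, -0.0685 within the shared index, and -0.0202 and -0.127 without the 3 striatum and the 3 olfactory libraries, and ranged from -0.00586 to 0.166 leaving out 1 library. Pmch ranged from -0.131 (without intruder 2) to 3.35 leaving out 1 library. Of 588 list medians under alternatives, 586 moved by less than 1 SD between libraries. Without the 3 striatum libraries the choroid plexus median was -0.81 and the hypothalamus median -0.0685. The 586 include medians that turned sign. The striatum median went from 0.532 to -0.24 without the 3 striatum libraries. Without the 3 olfactory libraries the olfactory median went from 0.243 to -0.109 and the choroid plexus median from -0.172 to 0.354. A block by index could not be fitted over all frontal cortex libraries and was fitted in the 2 groups alone. The cause of these shifts was not tested.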
